A study of Mus musculus with 18 samples.

Results

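The endoderm transcription factors described here are the 6 genes Foxa1, Foxa2, Foxa3, Sox17, Gata4 and Gata6. They were chosen by name, as listed factors of the Foxa, Sox and Gata families, from 55401 gene IDs, each factor matching 1 ID. Poly(A) RNA was sequenced from the mouse embryonic stem cell line RHKI, a derivative of E14Tg2a that carries an HA-Rnaseh1 knock-in in all 18 libraries. Rnaseh1 encodes RNase H1, an enzyme that cuts RNA paired with DNA in R-loops, and the knock-in is switched on by doxycycline (Dox). The 6 groups of 3 libraries were Dox and control cells at 0 h (day 0), 72 h (day 3) and 120 h (day 5) of gastruloid differentiation, in which stem cell aggregates form tissues of the early embryo. Dox cells received 500 ng/ml Dox for 48 h before differentiation. Control cells carried the same knock-in and were labelled without Dox. The stem cells were grown in 2i/LIF medium, and the labels do not say whether the line is 1 clone, whether Dox was continued, or how many gastruloids made a sample.

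Endoderm is the inner germ layer that forms the gut tube and organs such as the liver, pancreas and lung. Its cells arise from the anterior primitive streak under strong Nodal signalling. FOXA proteins are forkhead factors that can bind closed chromatin and open it for other factors, SOX17 is a SOX F factor needed for definitive endoderm in the mouse, and GATA4 and GATA6 act in both embryonic and extraembryonic endoderm. None of the 6 is confined to endoderm. Foxa2 also acts in the node, notochord and floor plate of the neural tube, Foxa1 in floor plate, Sox17 in endothelium and germ cells, and Gata4 and Gata6 in the heart.

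The sequences before the start sites of the 3 Foxa genes are shown because Foxa1 and Foxa2 were the members that changed with Dox, and Foxa3 is their close paralogue. They are from RefSeq (GRCm38.p6), 250 bases on the minus strand up to the base before the outermost start in that table, 5′ to 3′. They lie at chr12:57546112-57546361 (Foxa1), chr2:148046970-148047219 (Foxa2) and chr7:19023540-19023789 (Foxa3). Capitals mark matches on either strand to a forkhead motif, TGTTTNC, or to the TATA box letters TATAAA, which do not overlap here. In GENCODE M21 the Foxa1 window is not wholly outside the gene. One transcript starts 10 bases upstream of the RefSeq start, so that 10 bases of the window are in its exon. Another starts 805 bases upstream, so that the window lies in its intron. No base of the Foxa2 or Foxa3 window is in an exon of these genes. Runs of 5 G (GGGGG, either strand, overlapping matches counted, not capitalised) were searched as well.
Foxa1: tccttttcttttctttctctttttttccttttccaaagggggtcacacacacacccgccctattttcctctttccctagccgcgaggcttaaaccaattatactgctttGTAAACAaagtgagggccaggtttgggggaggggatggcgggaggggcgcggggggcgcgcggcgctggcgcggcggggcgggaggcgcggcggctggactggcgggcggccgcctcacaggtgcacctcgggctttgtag
Foxa2: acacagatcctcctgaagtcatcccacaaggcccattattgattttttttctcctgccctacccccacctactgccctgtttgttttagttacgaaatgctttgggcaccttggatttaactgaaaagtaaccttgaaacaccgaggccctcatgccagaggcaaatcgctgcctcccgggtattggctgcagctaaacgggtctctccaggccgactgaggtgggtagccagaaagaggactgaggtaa
Foxa3: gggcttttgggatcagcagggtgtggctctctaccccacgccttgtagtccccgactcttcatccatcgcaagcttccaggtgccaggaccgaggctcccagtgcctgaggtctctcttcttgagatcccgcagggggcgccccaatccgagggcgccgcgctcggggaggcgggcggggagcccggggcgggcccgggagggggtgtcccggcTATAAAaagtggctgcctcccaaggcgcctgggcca
Foxa1 held 1 forkhead match, starting 141 bases before the start site, as did 17.8% of all 32851 promoters of this length with at least 1 match. Foxa3 held 1 TATA match 36 bases before its start, against 12.4% of all promoters. Foxa2 held neither. Foxa1 held 4 G runs, Foxa2 held 1 and Foxa3 held 2, and 47.2% of all promoters held at least 1. For Foxa2 the table gives 3 start sites. GC content was 62.0% for Foxa1, 50.8% for Foxa2 and 68.8% for Foxa3, beside a median of 52.4% over all promoters.

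Libraries held 25748897 to 38128366 counts, so that 1 count was worth 0.026 to 0.039 CPM, the count scaled to library size. CPM values below include TMM factors, and levels between genes are compared in TPM, which corrects for length. Principal components 1 and 2 held 70.8% and 22.0% of the variance. Rnaseh1 was higher with Dox at each day by edgeR (adjusted p of 4.1e-13, 9.9e-10 and 1.3e-09 at days 0, 3 and 5), at 153 ± 18 CPM in Dox and 28.3 ± 2.3 CPM in control cells at day 0, at 68.1 ± 2.1 in Dox and 23.5 ± 1.1 in control cells at day 3, and at 57.1 ± 3.3 in Dox and 19.7 ± 0.37 in control cells at day 5 (SD, n = 3). The 6 stem cell markers summed to 2850 to 3130 TPM in Dox and 2880 to 3100 TPM in control libraries at day 0. At day 5 they summed to 214 to 219 TPM in Dox and 210 to 231 TPM in control libraries. Most of the day 5 sum was Sox2, at 206 ± 4.5 TPM in Dox and 212 ± 10 TPM in control cells. Pou5f1 stood at 5.85 ± 1.3 TPM in Dox and 4.39 ± 1.3 TPM in control cells at day 5. Replicate 2 of day 0 Dox stood apart from its group, with a mean chi-square per gene of 90.1 and 118 against its group mates, where other pairs of a group had 2.46 to 26.9. Nothing in the labels says that replicates were separate cultures, so the p-values cover the spread among these libraries, which may be technical.

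The 6 factors were low in stem cells, were led by Foxa2 at day 3, and were led by Foxa1 and Foxa2 in control gastruloids at day 5. Their summed level was 1.86 to 2.80 TPM in Dox and 2.02 to 2.84 TPM in control libraries at day 0. At day 3 it was 14.5 to 16.0 TPM in Dox and 13.4 to 17.2 TPM in control libraries. At day 5 it was 2.66 to 3.07 TPM in Dox and 4.18 to 4.66 TPM in control libraries, with no overlap. Foxa2 held 82.3 to 86.7% of the sum in Dox and 88.1 to 89.5% in control libraries at day 3.

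**Figure D1:**
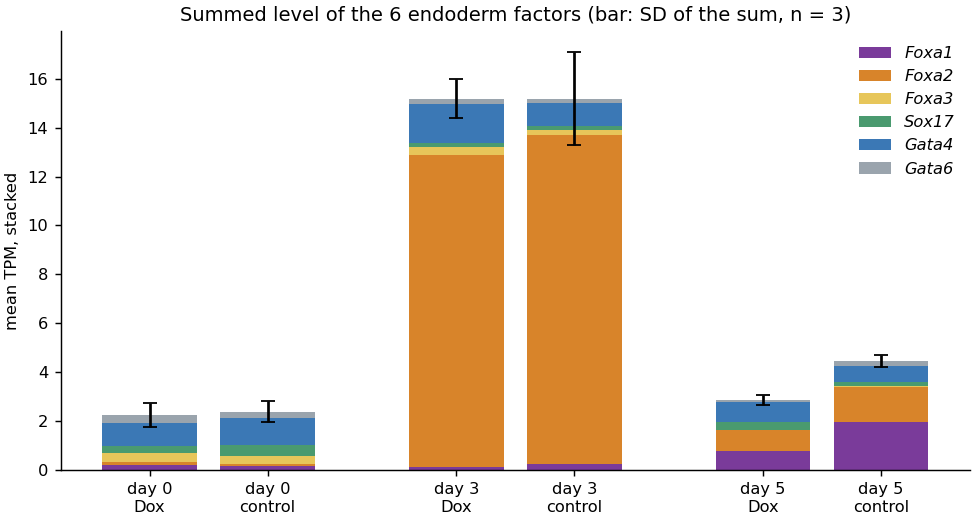
Mean TPM of each factor, stacked, in Dox and control groups at each day, with the SD of the sum over 3 libraries as error bars. Foxa2 makes up most of the bars at day 3, and the day 5 Dox bar (2.85 TPM) is lower than the day 5 control bar (4.44 TPM).

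Markers of endoderm were unevenly represented. Of the gut endoderm list, Epcam, an epithelial adhesion protein, averaged 165 ± 3.6 CPM in Dox and 175 ± 3.9 CPM in control cells at day 3 (SD, n = 3). Trh, a hormone precursor, averaged 167 ± 4.3 CPM in Dox and 159 ± 22 CPM in control cells at day 3. Cxcr4, a chemokine receptor, averaged 55.0 ± 2.9 CPM in Dox and 44.9 ± 1.5 CPM in control cells at day 5. These 3 genes were not high at the same day. At day 5 Epcam averaged 2.48 CPM in Dox and 2.55 CPM in control cells, and Trh 1.54 and 1.80 CPM. At day 3 Cxcr4 averaged 0.576 CPM in Dox and 0.434 CPM in control cells. Of the extraembryonic list, Lama1, a laminin chain, averaged 94.7 ± 5.9 CPM in Dox and 114 ± 7.0 CPM in control cells at day 5. None of these 4 is confined to endoderm. Other listed genes were at or near 0. Of 18 extraembryonic endoderm genes, Ttr, a serum carrier protein of visceral endoderm, and Apoa4, an apolipoprotein, had at most 3 counts in every library. Of 18 gut endoderm genes, Isx, Nkx2-1 and Tff3 had at most 3 counts in every library, as did Hnf4g among the HNF genes. Hnf4a, a nuclear receptor of liver and gut, had a sum of 7 counts in Dox and 3 in control libraries at day 5. Cer1, a secreted Nodal and Wnt antagonist of anterior endoderm, had a sum of 18 counts in Dox and 8 in control libraries at day 5. In bulk RNA, fewer cells of a type and less RNA per cell cannot be told apart.

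Foxa1 (ENSMUSG00000035451, chromosome 12, 57540628 to 57546916, GRCm38) was the factor that came on late. At day 0 its level was 0.581, 0.429 and 0.328 CPM in Dox and 0.390, 0.218 and 0.374 CPM in control libraries. At day 3 it was 0.149, 0.143 and 0.331 CPM in Dox and 0.232, 0.693 and 0.409 CPM in control libraries. Both days held at most 27 counts per library. At day 5 it was 1.64, 1.49 and 1.27 CPM in Dox and 3.73, 3.68 and 4.27 CPM in control libraries. Every day 5 library lay above all day 0 and day 3 libraries, and the Dox libraries at day 5 all lay below the control libraries.

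Foxa2 (ENSMUSG00000037025, chromosome 2, 148042877 to 148046969) had its peak at day 3. At day 0 the libraries held 1, 5 and 6 counts in Dox and 3, 6 and 1 counts in control cells. At day 3 the level was 17.0, 18.3 and 17.5 CPM in Dox and 17.9, 20.6 and 16.5 CPM in control libraries, and the groups overlapped. At day 5 it was 0.730, 0.793 and 0.606 CPM in Dox and 1.22, 1.87 and 2.24 CPM in control libraries, and the Dox libraries all lay below the control libraries. In TPM its mean at day 3 was above that of 58.9% of tested genes in Dox and 59.6% in control cells.

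Foxa3 (ENSMUSG00000040891, chromosome 7, 19013284 to 19023538), a forkhead paralogue best known from liver, was at trace level before it was nearly lost. It averaged 0.532 ± 0.28 CPM in Dox and 0.532 ± 0.11 CPM in control cells at day 0 (SD, n = 3). At day 3 it averaged 0.450 ± 0.12 CPM in Dox and 0.268 ± 0.12 CPM in control cells. At day 5 it had 1 count over the 3 Dox libraries and 1 over the 3 control libraries, so no fold between them is given.

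Sox17 (ENSMUSG00000025902, chromosome 1, 4490931 to 4497354) never passed 17 counts in a library. It averaged 0.351 ± 0.072 CPM in Dox and 0.430 ± 0.18 CPM in control cells at day 0 (SD, n = 3), 0.164 ± 0.14 CPM in Dox and 0.158 ± 0.051 CPM in control cells at day 3, and 0.237 ± 0.14 CPM in Dox and 0.214 ± 0.090 CPM in control cells at day 5. The Dox and control libraries overlapped at each of the 3 days. Its neighbour on the other strand, Gm37587, overlaps it and held at most 2 counts in a library.

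Gata4 (ENSMUSG00000021944, chromosome 14, 63198922 to 63271692) was the highest of the 6 at day 0 in TPM. At day 0 it stood at 1.58, 1.99 and 3.10 CPM in Dox and 1.87, 2.27 and 3.26 CPM in control libraries. At day 3 it stood at 2.86, 3.50 and 2.62 CPM in Dox and 2.03, 2.13 and 1.71 CPM in control libraries. At day 5 it stood at 1.06, 1.62 and 1.91 CPM in Dox and 0.915, 0.951 and 0.952 CPM in control libraries. The groups overlapped at day 0, and at days 3 and 5 each Dox library lay above each control library in CPM. In TPM Gata4 was 0.57, 0.81 and 1.06 in Dox and 0.74, 0.67 and 0.53 in control libraries at day 5, and these overlapped. Gata6 (ENSMUSG00000005836, chromosome 18, 11052064 to 11085635) had at most 18 counts in a library and none in 1 Dox library at day 5. It averaged 0.245 ± 0.16 CPM in Dox and 0.471 ± 0.18 CPM in control cells at day 0 (SD, n = 3), 0.221 ± 0.017 CPM in Dox and 0.294 ± 0.057 CPM in control cells at day 3, and 0.119 ± 0.11 CPM in Dox and 0.137 ± 0.043 CPM in control cells at day 5. Its Dox libraries all lay below the control libraries at day 3 in CPM, not in TPM, and overlapped them at the other days. The opposite-strand transcript 1010001N08Rik overlaps Gata6 and held at most 1 count in a library.

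**Figure D2:**
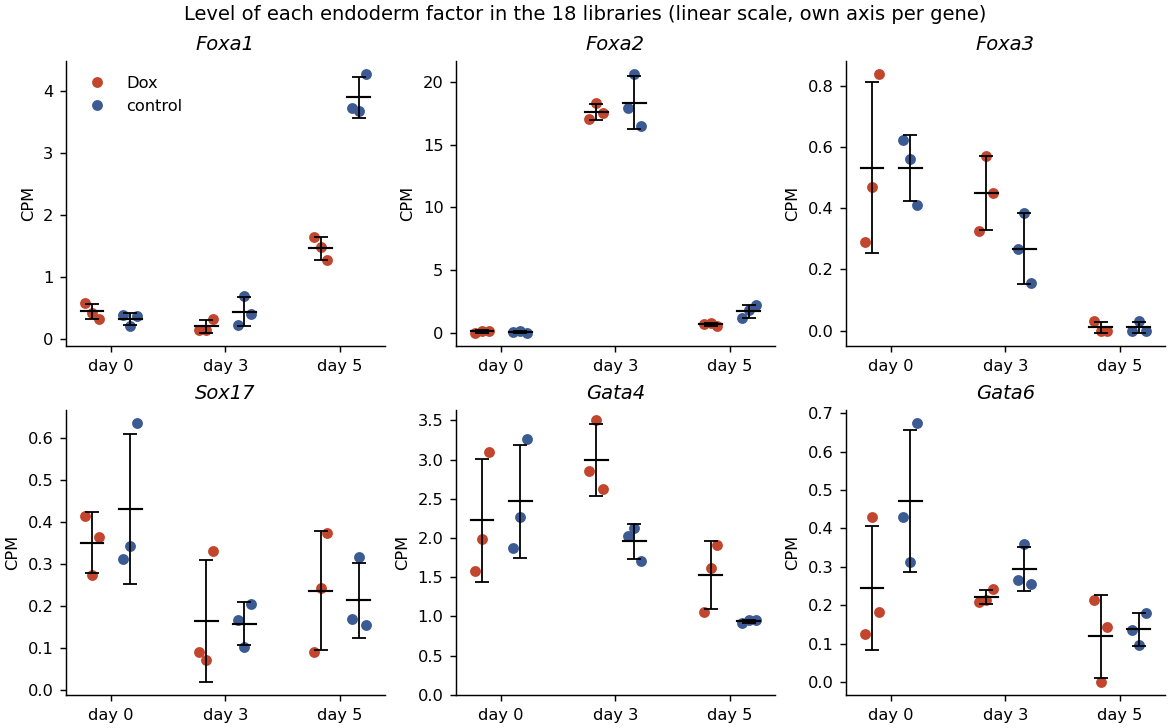
CPM of each factor in the 18 libraries (points), with the mean and SD of each group of 3 as black bars and Dox left of control at each day. Foxa1 is highest in day 5 control (3.89 CPM), Foxa2 peaks at day 3 (17.6 CPM in Dox, 18.3 in control), and Foxa3, Sox17 and Gata6 stay under 1 CPM.

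In order of level per length, Gata4 led at day 0 with 0.943 ± 0.37 TPM in Dox and 1.13 ± 0.34 TPM in control cells (SD, n = 3). The other factors had means of 0.143 to 0.350 TPM in Dox and 0.0767 to 0.417 TPM in control cells. At day 3 Foxa2 led with 12.8 ± 0.33 TPM in Dox and 13.5 ± 1.6 TPM in control cells, and Gata4 followed with 1.59 ± 0.25 TPM in Dox and 0.950 ± 0.14 TPM in control cells. At day 5 Foxa2, Gata4 and Foxa1 in Dox cells stood at 0.883 ± 0.44, 0.813 ± 0.25 and 0.740 ± 0.10 TPM and did not differ beyond their spread. In control cells at day 5 the order was Foxa1 at 1.93 ± 0.18, Foxa2 at 1.47 ± 0.26 and Gata4 at 0.647 ± 0.11 TPM. In each control library Foxa1 was above Foxa2 and Foxa2 above Gata4, although the ranges of Foxa1 (1.76 to 2.11 TPM) and Foxa2 (1.24 to 1.76 TPM) met.

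Between day 0 and day 3, Foxa2 rose in both arms, and this was the largest change of any of the 6. In Dox cells it averaged 17.6 ± 0.67 CPM at day 3 (SD, n = 3), against 0.152 ± 0.096 CPM at day 0, a log2 fold change of 6.79 ± 0.29 (SE) with an edgeR adjusted p of 1.3e-13. In control cells it averaged 18.3 ± 2.1 CPM at day 3 and 0.114 ± 0.075 CPM at day 0, a log2 fold change of 7.23 ± 0.29 (SE; edgeR adjusted p of 6.7e-14). In Dox cells 1 of 6 factors rose and 1 fell, where 36.7% of all genes tested rose and 35.9% fell. In control cells 1 of 6 rose and 1 fell, where 37.2% of all genes tested rose and 36.3% fell.

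The factors that fell between day 0 and day 3 were at trace level. Foxa1 fell in Dox cells by 1.06 on the log2 scale, with an edgeR adjusted p of 0.035. The edgeR adjusted p was 0.14 without day 0 Dox replicate 1, 0.06 without day 0 Dox replicate 2, 0.12 without day 3 Dox replicate 1 and 0.11 without day 3 Dox replicate 2. In control cells Sox17 fell by 1.42 on the log2 scale, with an edgeR adjusted p of 0.027. The edgeR adjusted p was 0.14 without day 0 control replicate 3, 0.052 without day 3 control replicate 1 and 0.1 without day 3 control replicate 2. In Dox cells the log2 change of Sox17 was -1.05 ± 0.58 (SE), with an edgeR adjusted p of 0.11. Sox17 had its highest group mean in day 0 control cells and passed the filter on counts through its higher libraries. That filter therefore favours a fall from day 0.

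Other genes of the endoderm programme moved both ways over these days. Of 9 measured Nodal signal and inducer genes (10 listed), 4 rose and 4 fell from day 0 to day 3 with Dox, and in control cells 4 rose and 5 fell. Eomes, a T-box factor upstream of endoderm, averaged 33.8 ± 11 CPM in Dox and 42.6 ± 14 CPM in control cells at day 3. Mixl1, a homeobox factor of streak and endoderm, averaged 8.73 ± 2.9 CPM in Dox and 13.6 ± 5.0 CPM in control cells at day 3. Nodal averaged 71.0 ± 7.1 CPM in Dox and 72.7 ± 7.2 CPM in control cells at day 3, below 129 ± 18 and 127 ± 14 CPM at day 0. Of 12 measured gut endoderm genes (18 listed) 9 rose and 2 fell in Dox cells, and 9 rose and 3 fell in the control arm. Over all genes tested 36.7% rose and 35.9% fell in Dox cells, and 37.2% rose and 36.3% fell in the control arm.

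Between day 3 and day 5, Foxa1 rose while Foxa2, Foxa3 and Gata4 fell, in both arms. In both arms 1 of 6 factors rose and 3 fell. Among all genes tested 32.2% rose and 32.9% fell in Dox cells, and 31.7% rose and 33.1% fell in the control arm. The log2 fold change of Foxa1 was 2.78 ± 0.37 in Dox cells and 3.09 ± 0.31 in control cells (SE), and edgeR gave adjusted p of 2.1e-06 with Dox and 5.5e-08 without. The log2 fold change of Foxa2 was -4.63 ± 0.22 in Dox cells and -3.35 ± 0.19 in control cells, and edgeR gave adjusted p of 1.1e-12 with Dox and 2.1e-11 without. For Gata4 it was -0.96 ± 0.25 in Dox cells and -1.05 ± 0.27 in control cells, with edgeR adjusted p of 0.0028 for Dox and 0.0024 for control.

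The loss of Foxa3 rested on few counts. In Dox cells it had 1 count over 3 libraries at day 5 and 42 at day 3, a ratio of 0.0232 with an exact 95% interval of 0.00057 to 0.137. In control cells it had 1 count at day 5 and 29 at day 3, a ratio of 0.0379 with an exact 95% interval of 0.00093 to 0.228. The intervals cover counting error only. The edgeR adjusted p was 2.5e-05 in Dox and 0.00028 in control cells. With 1 count per group at day 5, Foxa3 passed the filter on counts through days 0 and 3 alone, which favours a fall. With every gene kept, the edgeR adjusted p was 1.4e-07 in Dox and 2.7e-05 in control cells. Of the 9 measured Nodal signal and inducer genes, 7 fell and none rose in each arm between day 3 and day 5. Of 4 measured HNF and related genes all 4 rose in each arm.

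With Dox at day 5, Foxa1 and Foxa2 were lower and no factor passed the threshold as higher. Thus 2 of 6 factors fell and 0 rose by edgeR and by DESeq2, where by edgeR 2.34% of all genes tested fell, 2.39% rose and 4.74% changed in either direction. Foxa1 averaged 1.47 ± 0.19 CPM in Dox and 3.89 ± 0.33 CPM in control cells (SD, n = 3). Its log2 fold change was -1.41 ± 0.27 (SE), a 2.65-fold lower level, with an edgeR adjusted p of 0.0041. Foxa2 averaged 0.710 ± 0.095 CPM in Dox and 1.78 ± 0.52 CPM in control cells. Its log2 fold change was -1.34 ± 0.25, a 2.53-fold lower level, with an edgeR adjusted p of 0.0028. Both were lower in 3 of 3 Dox libraries than in any control library. Over 14 other settings of the count fit the edgeR or DESeq2 adjusted p lay between 3.7e-05 and 0.038 for Foxa1 and between 3e-06 and 0.032 for Foxa2.

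The fall of Foxa2 was called on counts and not on the deposited TPM. Its TPM at day 5 was 1.36, 0.81 and 0.48 in Dox and 1.24, 1.42 and 1.76 in control libraries, and the groups overlapped. With limma on log2(TPM + 0.1) the log2 fold change was -0.77, with a limma adjusted p of 0.2, an alternative added after the data were seen. Foxa2 has 4 transcripts in the deposited tables, and TPM divides by an effective length that follows their estimated mix. That length was 832, 1456 and 1896 bases in Dox and 1533, 1900 and 1898 bases in control libraries at day 5. The rounded counts behind it were 24, 26 and 21 in Dox and 36, 59 and 87 in control libraries. For Foxa1 the TPM of the groups did not overlap, at 0.84, 0.74 and 0.64 in Dox and 1.92, 1.76 and 2.11 in control libraries. For Foxa2, Dox replicate 1 had the shortest effective length and the highest TPM of its group at a count close to the others.

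**Figure D3:**
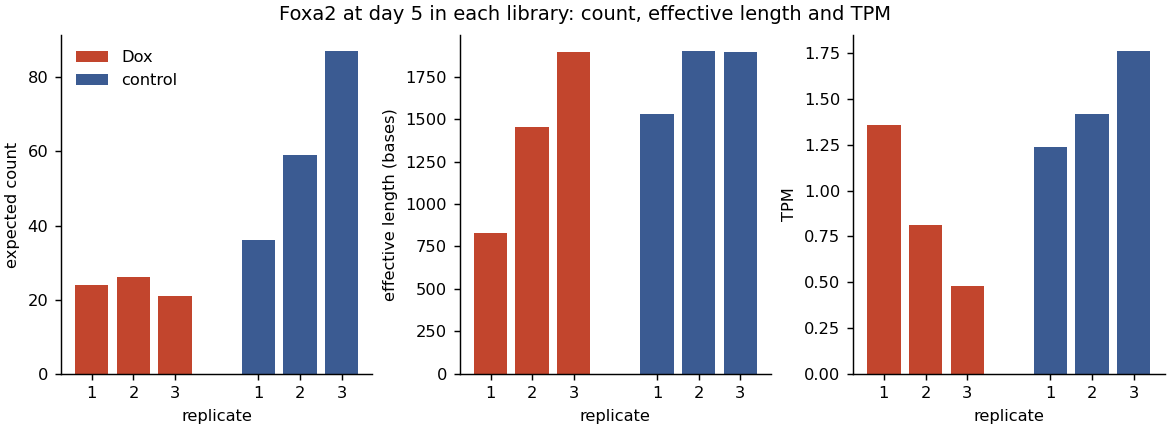
Foxa2 in each day 5 library, Dox left of control, as RSEM count, effective length in bases and TPM. The Dox counts (21 to 26) are all below the control counts (36 to 87), whereas the TPM of Dox replicate 1 (1.36) lies within the control range (1.24 to 1.76), at an effective length of 832 bases.

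The remaining factors did not pass the threshold at day 5. Gata4 averaged 1.53 ± 0.43 CPM in Dox and 0.939 ± 0.021 CPM in control cells (SD, n = 3). Its log2 fold change was 0.70 ± 0.28 (SE, 95% interval 0.11 to 1.29), with an edgeR adjusted p of 0.19. It was the 1 factor whose Dox libraries all lay above the control libraries, as 13.8% of all genes tested did, and Foxa1 and Foxa2 were the 2 whose Dox libraries all lay below, as 12.3% of genes did. The log2 fold change was 0.17 ± 0.56 for Sox17 (95% interval -1.01 to 1.35) and -0.21 ± 0.69 for Gata6 (95% interval -1.65 to 1.23). The interval of Gata6 includes changes as large as those of Foxa1 and Foxa2. The median log2 fold change over the 6 factors, Foxa3 included, was -0.11, beside 0.0034 over all genes tested.

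At day 3 no factor passed the threshold by edgeR or by DESeq2, where 0.0169% of all genes tested were called by edgeR. An unadjusted edgeR p under 0.05 was found for 2 of 6 factors and for 2.43% of all genes tested. Foxa2, at its peak, had a log2 fold change of -0.06 ± 0.16 (SE, 95% interval -0.40 to 0.28), with an edgeR adjusted p of 1. Gata4 averaged 2.99 ± 0.45 CPM in Dox and 1.96 ± 0.22 CPM in control cells (SD, n = 3), with a log2 fold change of 0.61 ± 0.25 (95% interval 0.09 to 1.13). Its Dox libraries all lay above the control libraries, as did those of 5.66% of all genes tested, and those of Gata6 all lay below, as did those of 5.46%. Foxa1 averaged 0.207 ± 0.11 CPM in Dox and 0.445 ± 0.23 CPM in control cells, with a log2 fold change of -1.10 ± 0.41 (95% interval -1.97 to -0.24). Foxa1 and Gata4 were the 2 with an unadjusted p under 0.05. The log2 fold change was 0.73 ± 0.47 for Foxa3, 0.09 ± 0.62 for Sox17 and -0.41 ± 0.55 for Gata6.

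At day 0 no factor passed the threshold by edgeR or by DESeq2, where 1.04% of all genes tested were called by edgeR. None of the 6 had an unadjusted edgeR p under 0.05, against 12.3% of all genes. No factor was called at day 0 without Dox replicate 2 either. The log2 fold change was -0.14 ± 0.26 for Gata4 (SE, 95% interval -0.68 to 0.40), the factor with the most counts in stem cells. It was 0.45 ± 0.41 for Foxa1, 0.38 ± 0.62 for Foxa2 and 0.01 ± 0.44 for Foxa3. It was -0.29 ± 0.52 for Sox17 and -0.91 ± 0.55 for Gata6. At 1 to 18 counts per library for Foxa2, Sox17 and Gata6, changes well above these errors could go undetected at this depth. That of Gata6 was larger than its SE and had an edgeR adjusted p of 0.56.

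**Figure D4:**
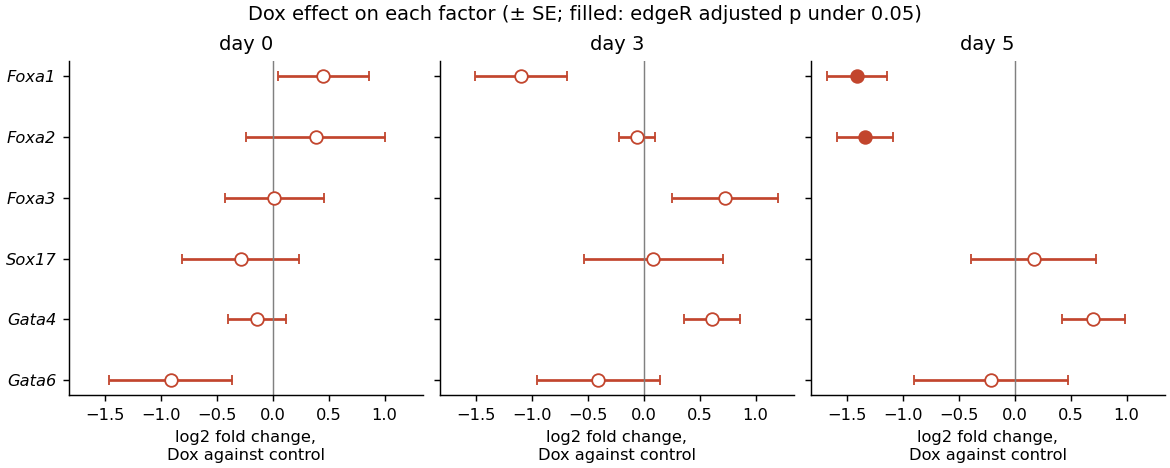
Log2 fold change of each factor, Dox against control, at days 0, 3 and 5, with SE bars and filled points for an edgeR adjusted p under 0.05. Foxa1 (-1.41) and Foxa2 (-1.34) at day 5 are the filled points, and Foxa3 at day 5 is left out because each group held 1 count.

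Whether the Dox effect differed between days was tested directly. For Foxa2 the effect at day 5 minus that at day 3 was -1.28 ± 0.30 on the log2 scale (SE), with an edgeR adjusted p of 0.052. A fit with replicate as a block gave an edgeR adjusted p of 0.034, and DESeq2 gave 0.00098. Without 1 library at a time the edgeR adjusted p was 0.017 to 0.26, with the lowest value without day 5 control replicate 1. For Foxa1 the effect at day 5 minus that at day 3 was -0.30 ± 0.53 (95% interval -1.41 to 0.81). The effect on Foxa1 at day 3 minus that at day 0 was -1.55 ± 0.58, with an edgeR adjusted p of 0.46. For day 5 minus day 3, 0 of 6 factors passed by edgeR and 1 by DESeq2, where 0.82% of all genes tested were called by edgeR. No share of all genes is given here for DESeq2, so its counts of factors and listed genes lack that background. An unadjusted edgeR p under 0.05 was found there for 1 factor and for 8.31% of all genes. For day 3 minus day 0, 0 of 6 passed by edgeR and by DESeq2, where 0.0562% of all genes were called by edgeR. There 2 factors had an unadjusted edgeR p under 0.05, as did 8.05% of all genes.

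Related genes at day 5 are read against the 4.74% of all genes called by edgeR and the 16.4% with an unadjusted edgeR p under 0.05. Of 4 measured HNF and related genes (6 listed) none passed by edgeR or DESeq2, with 1 at an unadjusted p under 0.05, and the list's median log2 fold change was -0.42. Onecut2, a cut homeobox factor, averaged 17.2 ± 0.57 CPM in Dox and 14.3 ± 1.9 CPM in control cells (SD, n = 3), and the edgeR adjusted p was 0.63. Of 6 measured other GATA and SOX F genes none passed by edgeR or DESeq2 and none had an unadjusted p under 0.05. The 2 with the highest mean CPM over all 18 libraries were Gata2 and Gata3. At day 5 Gata2 averaged 0.379 ± 0.041 CPM in Dox and 0.298 ± 0.056 CPM in control cells, and Gata3 averaged 0.359 ± 0.021 CPM in Dox and 0.539 ± 0.15 CPM in control cells.

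Of 9 measured Nodal signal and inducer genes none passed at day 5 by edgeR or DESeq2, with 3 at an unadjusted p under 0.05. Nodal, the ligand, averaged 0.670 ± 0.11 CPM in Dox and 0.575 ± 0.059 CPM in control cells (SD, n = 3), and its co-receptor Tdgf1 averaged 0.575 ± 0.23 CPM in Dox and 0.264 ± 0.18 CPM in control cells. Of 12 measured gut endoderm genes Cdh1, the epithelial cadherin, fell and none rose by edgeR. DESeq2 called 3 of the 12, and 6 had an unadjusted edgeR p under 0.05. Cdh1 averaged 2.99 ± 0.60 CPM in Dox and 5.84 ± 0.46 CPM in control cells, and the edgeR adjusted p was 7.3e-05. Of 14 measured extraembryonic endoderm genes (18 listed) 4 rose and 1 fell, where 2.39% of all genes rose and 2.34% fell. An unadjusted edgeR p under 0.05 was found for 6 of the 14. The median log2 fold change of the list was 0.05. Sparc, a matrix protein, averaged 65.3 ± 6.7 CPM in Dox and 38.5 ± 3.2 CPM in control cells, and Lrp2, an endocytic receptor, averaged 73.0 ± 5.8 CPM in Dox and 47.4 ± 7.6 CPM in control cells. Dab2, an endocytic adaptor, and Apoe, an apolipoprotein, rose 1.53-fold and 1.48-fold. The gene that fell was Lamb1, a laminin chain, at 49.6 ± 6.1 CPM in Dox and 63.7 ± 3.5 CPM in control cells. The cells in which these genes rose or fell were not tested.

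Since Foxa1, Foxa2 and Gata4 act outside endoderm, markers of the other tissues are given beside them. Of 9 measured node, notochord and floor plate genes Nkx6-1, a homeobox factor of the ventral neural tube, fell at day 5 and none rose. It stood at 4.02, 5.09 and 4.24 CPM in Dox and 8.81, 10.5 and 10.4 CPM in control libraries, 2.22-fold lower with an edgeR adjusted p of 0.0041. Shh, the ligand made by notochord and floor plate and a gene singled out after its values were seen, held 10, 11 and 6 counts in Dox and 20, 20 and 21 counts in control libraries, with an edgeR adjusted p of 0.28. The list of 14 genes summed to 67.3 to 71.0 TPM in Dox and 65.5 to 80.4 TPM in control libraries. Most of this sum was Ntn1, at 45.2 ± 1.1 TPM in Dox and 44.4 ± 5.7 TPM in control cells (SD, n = 3). The sum therefore says little on lower genes such as Shh and Nkx6-1. Noto, which marks the node and notochord, had at most 3 counts in every library. The part of floor plate cells in the fall of Foxa1 and Foxa2 was not tested.

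Heart and lateral mesoderm markers are given beside Gata4. Of 9 measured genes none passed at day 5 by edgeR or DESeq2, with 2 at an unadjusted p under 0.05. The 14 genes summed to 2.51 to 2.98 TPM in Dox and 2.69 to 4.35 TPM in control libraries, and Tbx5, Wnt2 and Nppa had at most 3 counts in every library. Bmp4, a signalling ligand, averaged 0.319 ± 0.077 CPM in Dox and 0.511 ± 0.11 CPM in control cells (SD, n = 3), and Mef2c, a muscle and endothelial factor, averaged 0.993 ± 0.19 CPM in Dox and 0.732 ± 0.22 CPM in control cells. The part of heart mesoderm cells in the levels of Gata4 was not tested. Of 8 measured endothelial and blood genes (11 listed) Tek, an angiopoietin receptor, rose 3.53-fold with Dox at day 5 with an edgeR adjusted p of 0.018, and none fell. Tek held 39, 18 and 40 counts in Dox and 7, 10 and 10 counts in control libraries. In this list 1 gene had an unadjusted edgeR p under 0.05.

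Of 8 general gastruloid markers 3 fell at day 5, where 2.34% of all genes fell, and none rose, and the other 5 did not pass the threshold. An unadjusted edgeR p under 0.05 was found for 6 of the 8. Hoxb9, a posterior Hox factor, fell 2.06-fold, Meox1, a somite factor, 1.42-fold and Pax6, a neural progenitor factor, 1.34-fold. Among 6 stem cell markers Nanog was higher, at 2.08 ± 0.49 CPM in Dox and 1.22 ± 0.34 CPM in control cells (SD, n = 3). In that list 2 genes had an unadjusted edgeR p under 0.05.

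**Figure D5:**
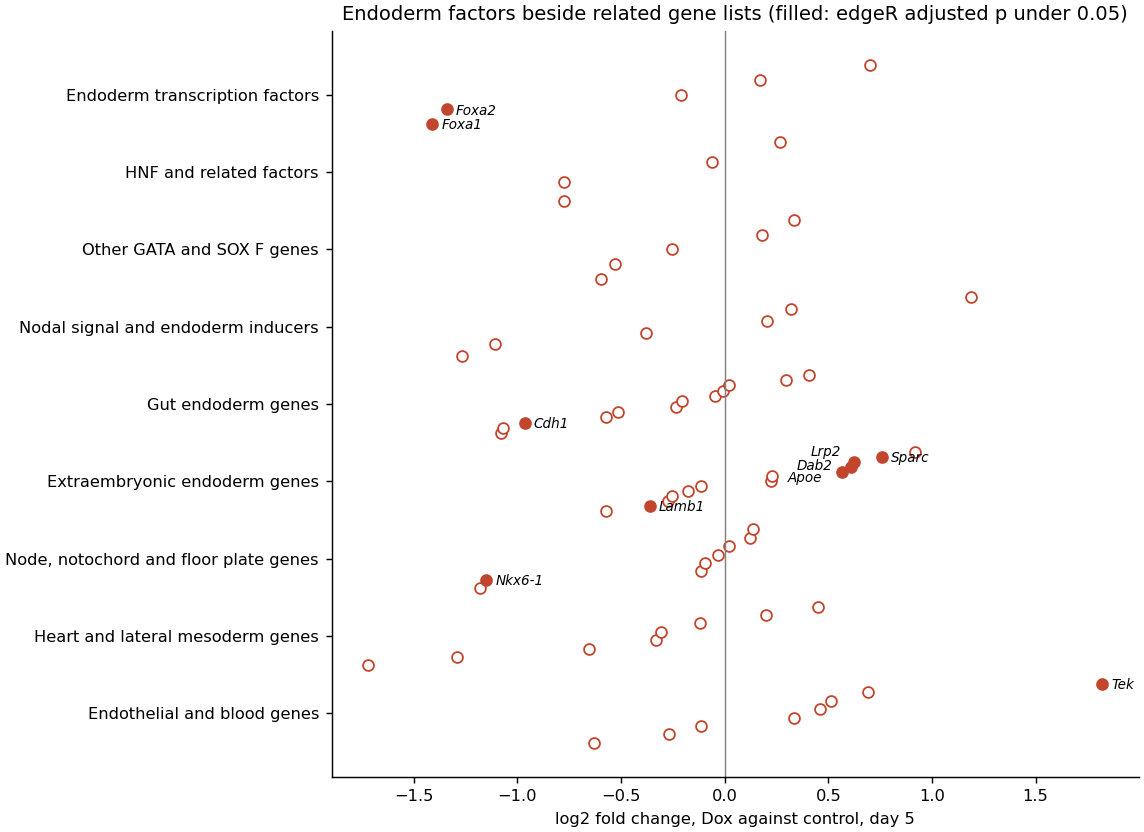
Log2 fold change at day 5, Dox against control, for genes of 9 lists, 1 point per gene, filled for an edgeR adjusted p under 0.05. Genes with more than 3 counts summed in each group are drawn. Foxa1 and Foxa2 are the filled points of the endoderm factors, 4 filled extraembryonic endoderm genes and Tek lie above 0, and Nkx6-1, Cdh1 and Lamb1 lie below 0.

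Genes whose course was closest to each factor were found by the root mean square distance between centred log2 CPM over the 18 libraries. For Foxa1 they were Postn (0.467), Kitl (0.497) and Gpr39 (0.535), beside a median distance of 1.49 over all genes. Kitl, the ligand of the KIT receptor, averaged 7.88 CPM in Dox and 13.4 CPM in control cells at day 5 and at most 2.11 CPM in any group at the earlier days. Postn and Gpr39 had no count at days 0 and 3, and Postn averaged 0.210 CPM in Dox and 0.522 CPM in control cells at day 5. For Foxa2 they were Shc4 (0.529), Slc9a9 (0.541) and Gabra3 (0.613), beside a median of 2.81. Shc4, a signalling adaptor, averaged 29.3 CPM in Dox and 29.4 CPM in control cells at day 3, and 1.84 CPM in Dox and 2.05 CPM in control cells at day 5. The closest genes were picked on these same libraries, so their sharing of the day 3 peak of Foxa2 follows from the choice. Their day 5 group means differed less between Dox and control cells than those of Foxa2.

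For Foxa3 the closest genes were Lgals1 (0.369), Atoh1 (0.375) and Clstn3 (0.380), beside a median of 1.44. Atoh1, a proneural factor, was itself at 0.660 CPM in Dox and 0.489 CPM in control cells at day 0, and had no count at day 5. For Gata4 they were Nap1l2 (0.301), Ninj1 (0.302) and Usp35 (0.309), beside a median of 0.796. Usp35, a deubiquitinase, averaged 7.26 CPM in Dox and 4.23 CPM in control cells at day 5. For Sox17 (0.407 to 0.432) and Gata6 (0.510 to 0.517) the closest distances were nearer to the medians of 0.842 and 0.928. Their own spread over the libraries was an SD of 0.665 and 0.766 on the log2 scale, at a few counts per library.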

How the data were processed

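RNA of all 18 samples went through a stranded mRNA kit, per the labels' protocols. Tools listed in the submitters' processing notes, without role or order, are RSEM (1.3.3), DESeq2 (1.38.2), Trimmomatic and STAR (2.7.10a). The build listed is GRCm38. The annotation release and the strand setting of the counting are not given in the sources used here. Per the file headers, each deposited table gives RSEM expected counts, which are not normalized. It also gives TPM, which the authors' tool scales by length and library, and an effective length. Between 6.54 and 7.49% of the expected counts were not whole and were rounded. A symbol was found for 55141 of 55401 IDs, and gene positions are those of GENCODE M21.

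The main test was the quasi-likelihood F test of edgeR 4.0.16 in R 4.3.3 on all 18 libraries, 1 mean for each of the 6 groups, leaving 12 residual degrees of freedom. TMM factors ran from 0.894 to 1.06. filterByExpr (minimum count 10, minimum total 15) kept 17795 genes, among them all 6 factors, the low ones through their higher groups. P-values were adjusted over these genes by Benjamini-Hochberg, with a threshold of 0.05. The fit was tested on simulated data first. Intervals on counts cover counting error only.

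Replicate numbers match the batch tag in the labels, so same-numbered libraries may be paired. After removal of the group means, same-numbered Dox and control libraries had correlations over genes of 0.206 to 0.331 at day 0, 0.0103 to 0.0365 at day 3 and 0.0224 to 0.0506 at day 5. Differently numbered pairs had -0.252 to 0.0553. The main fit has no block, and the replicate block was tried as an alternative. Others were DESeq2 1.42.0, RLE factors, unscaled library sizes, every gene kept, a minimum of 1 CPM in 3 libraries, single-day fits with or without the block, and omission of each library. A limma 3.58.1 fit of log2(TPM + 0.1) was added after the data were seen.

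The factors and lists were chosen with earlier results of these data known. From each other list, the named genes were up to 4 called at day 5 by smallest p, or the 2 of highest mean CPM if none was called. One gene that this rule names is not reported here. Genes singled out beyond this were chosen after their values were seen. They are Hnf4a, Cer1, Eomes, Mixl1, Shh, Epcam, Trh, Cxcr4, Lama1, Lamb1, Sox2, Pou5f1, Ntn1 and markers at or near 0. The further measured node, notochord and floor plate genes were also added then. The 3 closest genes per factor exclude placeholder symbols. Promoter windows were matched for 3 factors.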

Additional observations from a re-analysis of the deposited data

How the results depend on the processing

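The 2 day 5 falls, of Foxa1 and Foxa2, were called in each of 14 other settings of the count fit, including the replicate block and the fit of day 5 alone. With the deposited TPM, added after the data were seen, 1 of these calls remained, that of Foxa1, and Foxa2 had a log2 fold change of -0.77 with a limma adjusted p of 0.2. TPM divides by effective length, which differed among the day 5 libraries of both groups, and its part in this value was not tested.

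With at least 1 CPM in 3 libraries, 3 factors were tested and the control course from day 0 to day 3 had 1 call (Foxa2), because Sox17 was not tested. For the Dox course from day 0 to day 3, library size alone and no filter each gave 1 call (Foxa2), with Foxa1 at -0.91 and -1.03; the cause was not tested. For the difference of the Dox effect between day 5 and day 3, DESeq2, no filter and the replicate block each gave 1 call (Foxa2), and the cause was not tested. The replicate block changed no other call. Leaving out each library in turn gave 1 to 2 calls for the control course and 1 to 3 for the Dox course from day 0 to day 3, 4 for each course from day 3 to day 5, 2 for Dox at day 5, 0 for Dox at days 0 and 3, and 0 to 1 for the difference between day 5 and day 3.

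Estimates that changed sign were all below the threshold in the fit reported. With TPM, the day 0 log2 fold changes were -0.10 for Foxa3 and 0.33 for Gata6, and the day 3 values were 0.0048 for Gata6 and -0.10 for Sox17. Foxa3 at day 0 was -0.021 with day 0 alone and the replicate block. Leaving out each library gave day 0 ranges of -0.0022 to 0.99 for Foxa2, -0.48 to 0.30 for Foxa3, -0.47 to 0.10 for Gata4 and -0.46 to 0.0932 for Sox17. The day 3 ranges were -0.133 to 0.0329 for Foxa2 and -0.93 to 0.41 for Sox17. The day 5 ranges were -0.88 to 0.35 for Gata6 and -0.33 to 0.55 for Sox17. The range was -0.77 to 0.21 for the Foxa1 difference between day 5 and day 3. Of the single-factor alternatives counted, 415 kept direction and side of the threshold, 19 changed sign, 10 lost a call and 4 gained one. Courses were counted only where the reported fit called them, and differences between days only for Foxa1 and Foxa2. Calls gained in other courses or differences are therefore not in these counts. Where 1 group is left with 2 libraries, they are assumed to vary like the others. Under about 20 counts per library, depth limits what can be seen for Foxa3, Sox17 and Gata6.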
